A study of Homo sapiens with 6 samples.

Results

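The 8 genes described here encode the ligands of the Nodal and activin branch of TGF-β signaling that are made by early embryonic cells (NODAL, GDF3 and INHBA), the co-receptor TDGF1, and the secreted antagonists LEFTY1, LEFTY2, CER1 and FST. They were chosen by name for these roles, with earlier results of these data known, out of 40396 genes with a deposited value. RNA-seq was carried out on day 3 of definitive endoderm (DE) differentiation of H1, an established human embryonic stem cell line, in 3 control and 3 SAR libraries. Both groups were grown on Matrigel with 50 ng/ml activin A (AA) for 3 days and with 2.5 µM CHIR99021, which activates Wnt signaling by inhibiting GSK3, for the first 24 h. The SAR group also received 0.5 µM saracatinib (SAR), known as an inhibitor of Src family kinases, for the 3 days, whereas the control group was grown without it. The paper reports that Src phosphorylation was not effectively inhibited at this dose. It reports lower phosphorylation of focal adhesion kinase at some of its sites. RNA-seq measures neither. All libraries came from 1 line, and the labels do not say whether the samples of a group were separate cultures, so that p-values measure only the spread between these samples, which may be technical.

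Nodal is a secreted ligand that patterns the early embryo and induces mesoderm and endoderm, and in cultured stem cells AA takes its place because both ligands use the same activin receptors and activate SMAD2 and SMAD3. Nodal additionally needs a co-receptor of the EGF-CFC family, such as TDGF1 (Cripto), whereas activin does not. SMAD2 and SMAD3 act with partners such as FOXH1, and among the genes they switch on are NODAL itself and its inhibitors of the LEFTY family, so that the pathway limits its own range. CER1 binds Nodal outside the cell, and FST (follistatin) binds and blocks activins.

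The expression was deposited as FPKM, a unit in which gene length and library total are divided out, and can therefore be compared between genes. The totals recovered from the FPKM ranged from 18877964 to 24419937 reads for control and from 16681280 to 18389543 for SAR. The groups were compared with limma on log2(FPKM + 0.1) over the 16371 genes whose mean reached 0.5 FPKM, and fold changes are given as log2 of SAR over control. A gene was said to rise or fall at a Benjamini-Hochberg adjusted p-value under 0.05, and to be upregulated or downregulated where its log2 fold change was also above 1 or under -1. Over all tested genes the log2 fold changes had a median of 0.12 as deposited and 0.00 after median-ratio rescaling of the libraries, and rescaled values are given below where they cross a threshold. The defining DE markers were expressed in both groups, with SOX17 at 31.6 FPKM in control and 67.5 with SAR, FOXA2 at 23.6 and 64.0, and CXCR4 at 118 and 83.2.

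Of the 8 genes, 7 passed the minimum and were tested. The 8 genes were chosen with earlier results of these data known, so the counts below describe them and are not independent support. LEFTY1, GDF3 and CER1 were downregulated, which is 3 of 7, against 1.58% of all tested genes that were downregulated. FST was upregulated, which is 1 of 7, against 3.41% of all tested genes that were upregulated. With rescaling LEFTY1, GDF3 and CER1 were again downregulated and 0 were upregulated, and over all tested genes the split moved from 559 upregulated and 259 downregulated to 403 and 362. At the adjusted p-value alone NODAL also fell and TDGF1 also rose, giving 4 lower (background 9.55%) and 2 higher (background 23.7%). The control and SAR libraries did not overlap for any of the 7 tested genes, but the same was true of 50.7% of all tested genes. SAR replicate 3 had the lowest value of the SAR libraries in 5 of the 7 (NODAL, GDF3, TDGF1, LEFTY2 and FST), as it did in 35.8% of all tested genes.

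**Figure D1:**
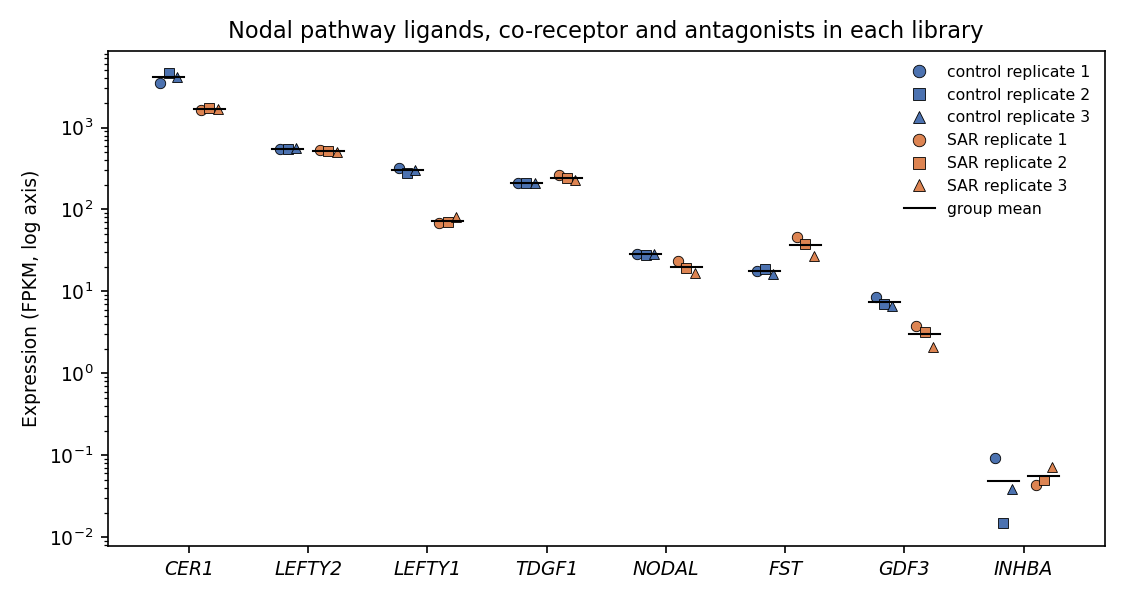
FPKM of the 8 genes on a log axis, with 1 point for each library and a line at the mean of each group (3 control and 3 SAR libraries). CER1 was the highest gene and INHBA the lowest in every library, and the groups overlapped only for INHBA.

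In the order of their levels, the 8 genes were separated without overlap between neighbours in either group. In control the order from high to low was CER1, LEFTY2, LEFTY1, TDGF1, NODAL, FST, GDF3 and INHBA. With SAR, LEFTY1 lay below TDGF1 and NODAL lay below FST, while the other positions were as in control. These genes spanned a wide range of levels in FPKM, from a mean of 4104 for CER1 to a mean of 0.049 for INHBA in control.

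**Figure D2:**
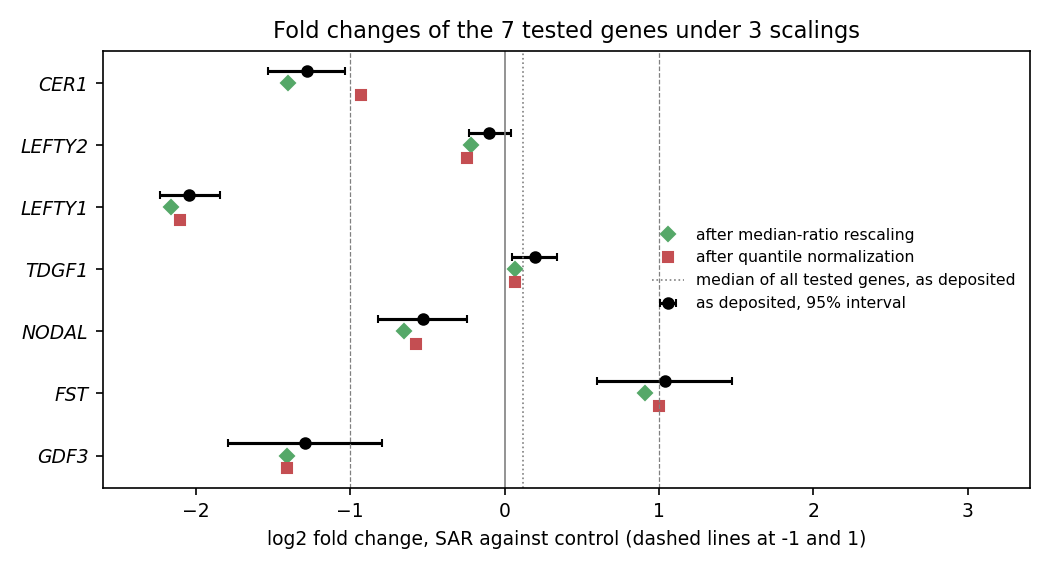
log2 fold change of SAR over control with its 95% confidence interval for the 7 tested genes, as deposited (circles) and after median-ratio rescaling (diamonds) or quantile normalization (squares, both without an interval), with dashed lines at -1 and 1. The interval of LEFTY1 ran from -2.23 to -1.84 and was the farthest from 0, whereas that of LEFTY2, from -0.23 to 0.04, included 0.

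NODAL (ENSG00000156574), the namesake ligand, lies on chromosome 10 from 70432315 to 70447951 on the minus strand of GRCh38. Its level was 28.7, 27.7 and 28.9 FPKM in control replicates 1, 2 and 3 and 23.7, 19.4 and 16.6 FPKM in SAR replicates 1, 2 and 3. The control libraries lay close together, whereas the SAR libraries were all lower and more spread. The mean was 28.4 ± 0.625 FPKM in control and 19.9 ± 3.57 with SAR (SD, n = 3 each), with a log2 fold change of -0.53 (SE 0.122, adjusted p = 0.0174 by limma), so NODAL fell but was not downregulated. The fall did not keep its adjusted p-value without SAR replicate 2 (log2 fold change -0.52, adjusted p = 0.0556 by limma) or without control replicate 3 (-0.52, adjusted p = 0.0597). The transcript AC022532.1 on the opposite strand covers 41.2% of the exon bases of NODAL and was at 1.85 to 1.98 FPKM in control and 1.16 to 1.67 with SAR. The strand setting of the counting is not given in the sources used here, so reads of the pair cannot be told apart.

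GDF3 (ENSG00000184344; chromosome 12, 7689782 to 7695776, minus strand) encodes a ligand that uses the same receptors and co-receptor as Nodal. It was at 8.57, 7.09 and 6.64 FPKM in the control replicates and 3.83, 3.20 and 2.11 FPKM in the SAR replicates, from 155 to 232 and 48 to 79 recovered reads. Every SAR library was below every control library. The mean fell from 7.43 ± 1.01 to 3.05 ± 0.87 FPKM, a ratio of 0.41 and a log2 fold change of -1.29 (SE 0.211, adjusted p = 0.00554 by limma). GDF3 was the least abundant of the 7 tested genes, and its counts were accordingly the smallest.

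INHBA (ENSG00000122641; chromosome 7, 41667168 to 41705834, minus strand) encodes the βA subunit whose dimer is activin A. It was listed at 0.0937, 0.0148 and 0.0384 FPKM in the control replicates and 0.0434, 0.0499 and 0.0722 in the SAR replicates, from 17, 3 and 6 and from 6, 7 and 11 reads. The groups overlapped and the gene was under the minimum for testing. A difference was not detectable at this depth. The activin A of the culture was added as protein, which RNA-seq does not measure.

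The promoters of the 3 ligand or antagonist genes that fell and had an entry in the promoter table are shown because the transcription factors of the pathway recognise 2 short motifs that can be searched in them. The motifs were CAGAC, a SMAD-binding sequence (GTCTG on the other strand), and AATNCACA, a FOXH1-binding sequence (TGTGNATT on the other strand). They do not overlap each other in the promoters below, and capitals mark a match. Each line holds the 250 bases before the RefSeq start (GRCh38.p14, minus strand, 5′ to 3′), for CER1 chr9:14722734-14722983, for NODAL chr10:70441682-70441931 and for GDF3 chr12:7695776-7696025.
CER1: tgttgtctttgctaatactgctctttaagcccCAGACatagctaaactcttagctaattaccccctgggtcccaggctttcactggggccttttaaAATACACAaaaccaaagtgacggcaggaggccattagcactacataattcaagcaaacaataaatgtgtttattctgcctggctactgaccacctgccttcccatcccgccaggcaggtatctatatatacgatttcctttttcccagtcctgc
NODAL: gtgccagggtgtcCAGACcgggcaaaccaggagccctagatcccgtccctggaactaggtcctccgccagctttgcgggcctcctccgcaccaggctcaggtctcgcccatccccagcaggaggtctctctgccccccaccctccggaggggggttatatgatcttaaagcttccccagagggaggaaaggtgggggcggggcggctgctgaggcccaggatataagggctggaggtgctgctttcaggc
GDF3: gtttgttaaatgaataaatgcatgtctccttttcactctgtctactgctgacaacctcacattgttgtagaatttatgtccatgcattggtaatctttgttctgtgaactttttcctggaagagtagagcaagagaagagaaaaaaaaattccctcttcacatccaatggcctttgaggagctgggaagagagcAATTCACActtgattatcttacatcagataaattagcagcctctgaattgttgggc
The CER1 promoter held both motifs, the NODAL promoter only CAGAC and the GDF3 promoter only the FOXH1 sequence (as AATTCACA). The promoters of FST and INHBA held neither in the same window, and 5 of the 8 genes matched an entry in the table. Among 35116 promoters of this length, CAGAC was found in 38%, the FOXH1 sequence in 2.89% and both in 1.19%. A match is a description of these letters and not a measured binding site.

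TDGF1 (ENSG00000241186; chromosome 3, 46574534 to 46582463, plus strand), the co-receptor, was at 209, 213 and 213 FPKM in the control replicates and 261, 239 and 230 FPKM in the SAR replicates. The SAR libraries were all slightly higher. The mean was 212 ± 2.16 FPKM in control and 243 ± 16 with SAR, and the log2 fold change was 0.20 (SE 0.0617, adjusted p = 0.047 by limma). After rescaling it was 0.07 (adjusted p = 0.415), which did not pass the test. Of the 150-base windows of its transcripts, 8.17% were also found in TDGF1P3, a processed copy at 7.36 to 9.64 FPKM in control and 7.72 to 9.07 with SAR. The RNA of the co-receptor stayed far more abundant than that of NODAL, with a log2 ratio of TDGF1 over NODAL of 2.86, 2.94 and 2.88 in control and 3.46, 3.62 and 3.79 with SAR.

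LEFTY1 (ENSG00000243709; chromosome 1, 225886282 to 225911382, minus strand) and LEFTY2 (ENSG00000143768; chromosome 1, 225936598 to 225941489, minus strand) are neighbouring genes for near-identical inhibitors of Nodal. Their coding sequences have 1098 bases and differ at 31, which is 97.2% identity. The longest identical run has 300 bases, which is more than the read length of 150.

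LEFTY1 was downregulated, whereas the value of LEFTY2 moved little. LEFTY1 was at 317, 278 and 304 FPKM in the control replicates and 68.0, 70.6 and 80.3 FPKM in the SAR replicates, with a wide gap between the groups. Its mean fell from 299.7 ± 19.6 to 73.0 ± 6.46 FPKM, a ratio of 0.243 and a log2 fold change of -2.04 (SE 0.0819, adjusted p = 7.96e-05 by limma). LEFTY2 was at 546, 547 and 566 FPKM in the control replicates and 536, 518 and 499 FPKM in the SAR replicates, close together although all SAR values were below the control values. The log2 fold change of LEFTY2 was -0.10 (SE 0.0564, adjusted p = 0.22 by limma), with a 95% confidence interval of -0.23 to 0.04. After rescaling LEFTY2 was at -0.22 (adjusted p = 0.0297), which passed the test.

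LEFTY1 made up 36.7%, 33.7% and 34.9% of the summed FPKM of the pair in the control replicates and 11.3%, 12.0% and 13.9% in the SAR replicates. The log2 ratio of LEFTY1 over LEFTY2 within a library was -0.79, -0.97 and -0.90 in control and -2.97, -2.87 and -2.63 with SAR, a difference of -1.94. This ratio does not depend on the total of a library. By an exact two-sided permutation test the difference had p = 0.1, the smallest that 3 against 3 libraries allow, and 0.12 after adjustment over 6 ratios. The sum of the pair went from 853 ± 24.1 to 590 ± 12.4 FPKM (log2 fold change -0.53, adjusted p = 0.00144 by limma with the pair entered as 1 gene).

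**Figure D3:**
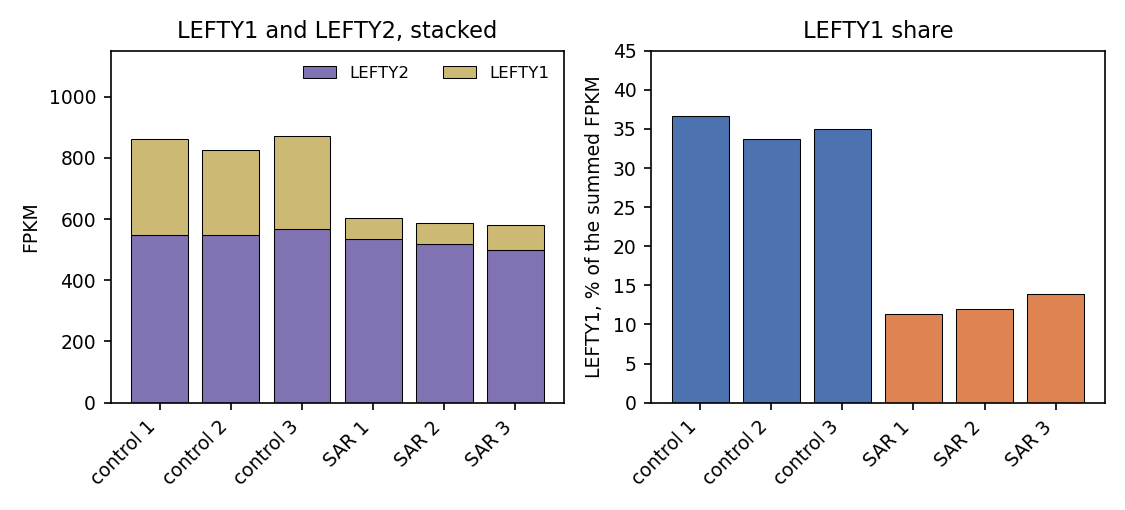
FPKM of LEFTY2 and LEFTY1 stacked (left) and the share of LEFTY1 in their sum in percent (right), with 1 bar for each of the 6 libraries. In the right panel the control libraries sit between 33.7% and 36.7% and the SAR libraries between 11.3% and 13.9%.

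The assignment of reads limits the levels of this pair. Of the 150-base windows of LEFTY1 transcripts, 8.68% were also found in LEFTY2, and 6.6% of those of LEFTY2 in LEFTY1. A further annotated gene on the same strand, AL117348.2, shares 46.6% of the exon bases of LEFTY1 and holds 42.2% of its windows, and its expression was not analysed here. How reads in shared sequence were assigned is not given in the sources used here, and their part in the values was not tested.

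CER1 (ENSG00000147869; chromosome 9, 14719724 to 14722717, minus strand), which encodes the Nodal antagonist Cerberus and is a marker of DE, was among the most abundant transcripts of the cells. It was at 3540, 4603 and 4167 FPKM in the control replicates and 1645, 1714 and 1691 FPKM in the SAR replicates. It ranked 5, 4 and 4 of 40396 genes in the control replicates and 9, 10 and 8 in the SAR replicates. The mean fell from 4104 ± 534 to 1683 ± 35.4 FPKM, with a log2 fold change of -1.28 (SE 0.106, adjusted p = 0.000683 by limma). Under quantile normalization, which sets the highest genes of each library to the same values, it was -0.93 (adjusted p = 0.00199), so that CER1 still fell but was no longer downregulated.

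FST (ENSG00000134363; chromosome 5, 53480409 to 53487134, plus strand), which encodes follistatin, was the 1 antagonist that rose. It was at 18.0, 18.7 and 16.5 FPKM in the control replicates and 46.7, 37.9 and 27.2 FPKM in the SAR replicates. Every SAR library was above the controls, but they were spread widely, with SAR replicate 3 the lowest. The mean went from 17.7 ± 1.13 to 37.3 ± 9.78 FPKM, a ratio of 2.1 and a log2 fold change of 1.04 (SE 0.182, adjusted p = 0.00708 by limma). The value was close to the threshold of 1, being 0.91 after rescaling, 0.86 without SAR replicate 1, 0.98 without control replicate 3 and 1.25 without SAR replicate 3. FST rose at the adjusted p-value alone in each of these fits.

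The antagonists therefore did not move as 1 group, since LEFTY1 and CER1 were downregulated, FST rose and LEFTY2 did not pass the test as deposited. The log2 ratio of NODAL over LEFTY1 was -3.46, -3.32 and -3.39 in control and -1.52, -1.85 and -2.27 with SAR. The log2 ratio of CER1 over LEFTY1 went from a mean of 3.77 to 4.53 and that of GDF3 over TDGF1 from -4.82 to -6.31. For 5 of the 6 ratios the groups were fully separated, which gives the smallest exact permutation p of 0.1 (0.12 after adjustment). For FST over INHBA it was 0.2. In bulk samples, fewer cells that express a gene and less RNA per cell cannot be told apart.

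**Figure D4:**
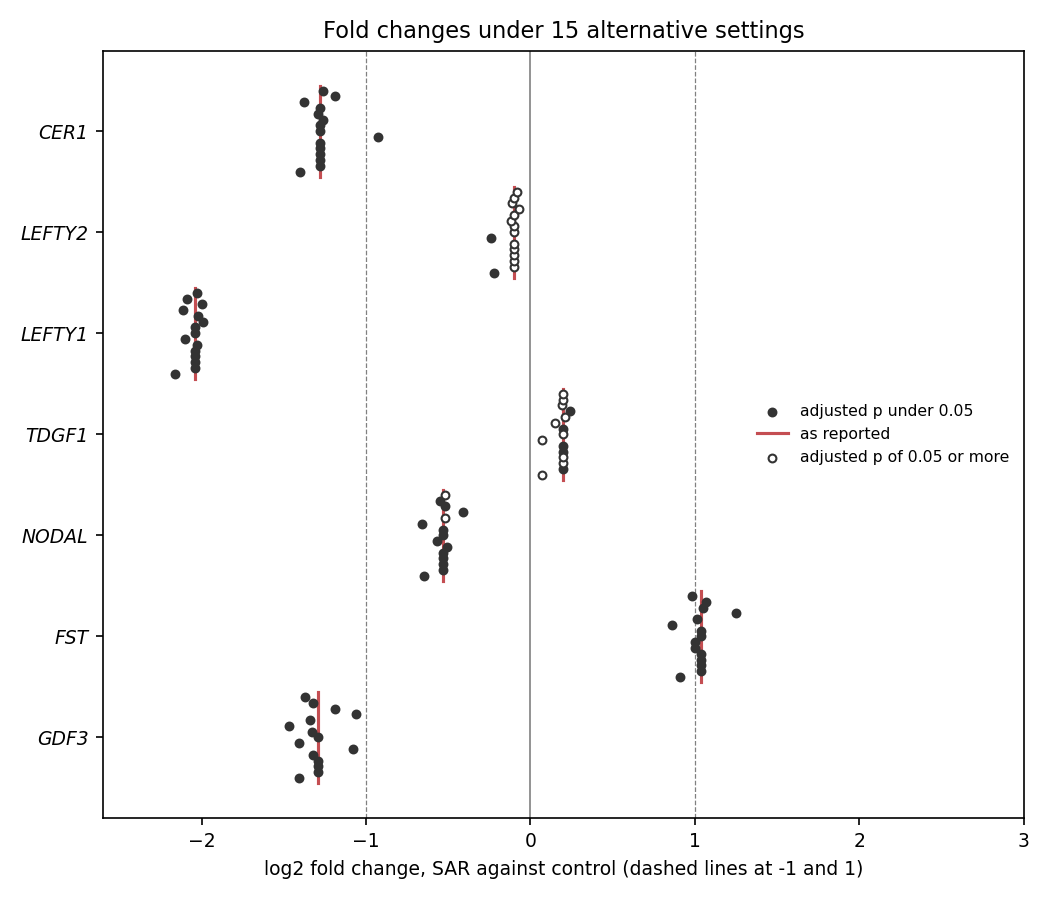
log2 fold change of the 7 tested genes under 15 alternative settings (points), with the reported value as a red line. Filled points have an adjusted p-value under 0.05 and open points do not, and dashed lines mark -1 and 1. LEFTY1 stayed between -2.16 and -1.99, and only CER1 and FST had points on both sides of a dashed line.

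Genes that act beside these 8 were taken from fixed lists, which were also chosen with earlier results of these data known. Of 11 related co-receptors and antagonists, 5 were tested, 2 were upregulated and 1 was downregulated, and the list's median on the log2 scale was 0.45, where all tested genes had 0.12. CFC1 (Cryptic), the other EGF-CFC co-receptor, was at 0.109, 0.343 and 0.222 FPKM in the control replicates and 2.37, 1.02 and 5.04 in the SAR replicates (log2 fold change 2.97, SE 0.558, adjusted p = 0.00896 by limma). CFC1 has a near-identical copy, CFC1B, with 0 to 10 reads in each library, so its level is uncertain. CHRD (chordin), an antagonist of BMPs, rose from 0.274 ± 0.122 to 2.10 ± 0.228 FPKM (log2 fold change 2.60, adjusted p = 0.00114).

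Of 8 related ligands and inhibin subunits, 3 passed the minimum, 0 were upregulated or downregulated, and 1 rose at the adjusted p-value alone as deposited but 0 did after rescaling. Of 8 receptors of the pathway, 7 were tested and 0 were upregulated or downregulated. At the adjusted p-value alone 2 receptors rose and 1 fell as deposited, and 0 rose and 3 fell after rescaling. Of 5 genes for the processing of ligands and their control at the membrane, namely FURIN, PCSK5, PCSK6, NOMO1 and BAMBI, 4 were tested and 0 passed the adjusted p-value. With so few genes in these lists, counts of 0 are near the shares of all tested genes that were upregulated (3.41%) or downregulated (1.58%). As deposited, the receptors that rose or fell at the adjusted p-value alone are near the 23.7% and 9.55% of all tested genes. The shares of all tested genes at the adjusted p-value alone after rescaling were not computed, so the 3 receptors that fell then have no such comparison.

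All 12 SMADs and partners were tested. PMEPA1, a target of SMAD signaling that also restrains it, was downregulated from 9.77 ± 0.991 to 3.61 ± 0.291 FPKM (log2 fold change -1.41, SE 0.0967, adjusted p = 0.000382 by limma). At the adjusted p-value alone 3 of the 12 rose, near the 23.7% of all tested genes that did, and 4 fell, against 9.55%. These are named after their values were seen. Beside PMEPA1, the inhibitory SMAD7 fell from 5.76 to 3.25 FPKM (log2 fold change -0.80, adjusted p = 0.00147 by limma). The signal transducer SMAD2 fell from 6.86 to 4.44 FPKM (-0.61, adjusted p = 0.00172) and SKIL from 22.2 to 18.0 FPKM (-0.30, adjusted p = 0.0107). TGIF1 rose from 29.6 to 44.4 FPKM (0.58, adjusted p = 0.000859), FOXH1 from 13.3 to 17.2 FPKM (0.37, adjusted p = 0.00399) and TGIF2 from 8.12 to 10.4 FPKM (0.35, adjusted p = 0.00494).

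Of 17 genes known as targets of activin and Nodal, all tested, 4 were upregulated and 6 were downregulated, and the median log2 fold change was -0.51. Of all tested genes 3.41% were upregulated and 1.58% were downregulated. After rescaling 2 of the 17 were upregulated and 6 downregulated. At the adjusted p-value alone 4 rose and 10 fell, both as deposited and after rescaling. As deposited, 23.7% of all tested genes rose and 9.55% fell. GSC, a homeobox gene of the organizer, fell from 70.5 ± 1.55 to 25.4 ± 3.79 FPKM (log2 fold change -1.48, adjusted p = 0.000382 by limma). FOXA2, a pioneer factor of endoderm, rose from 23.6 ± 1.38 to 64.0 ± 3.66 FPKM (1.44, adjusted p = 0.000107), and TBXT (brachyury) rose from 3.51 ± 0.245 to 11.7 ± 2.15 FPKM (1.69, adjusted p = 0.000574). The targets thus moved in both directions, and more of them fell than rose.

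**Figure D5:**
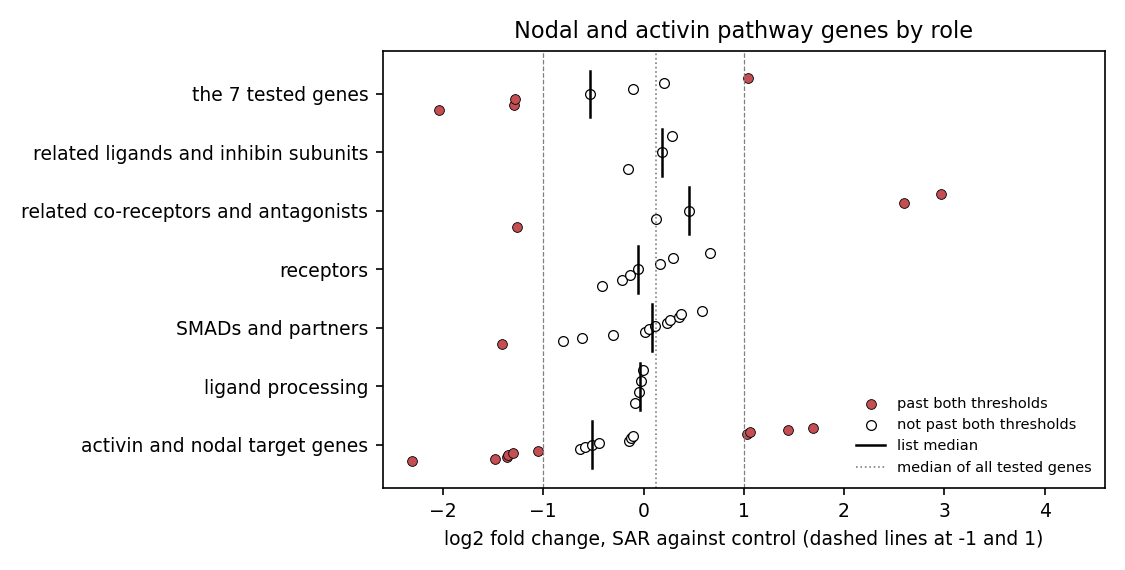
log2 fold change of SAR over control for the tested genes of each pathway list, with 1 point per gene (red where upregulated or downregulated), a black line at the median of the list and a dotted line at the median of all tested genes. The target genes spread on both sides of 0, among them GSC at -1.48 and TBXT at 1.69, whereas no receptor or processing gene lay beyond -1 or 1.

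By the Euclidean distance between log2 levels over the 6 libraries, each gene centred on its control mean, the genes most like LEFTY1 were SMAD6 (distance 0.306), ADAM19 (0.467) and LINC02575 (0.485). Those most like CER1 were PLSCR4 (0.0887), LZTS1 (0.186) and B3GNT5 (0.198). For GDF3 they were KRT16P1 (0.245), MIXL1 (0.27) and SNORA66 (0.274), and for FST they were DSP-AS1 (0.234), SOX17 (0.247) and HHEX (0.253). SOX17 and HHEX, both transcription factors of endoderm, rose with log2 fold changes of 1.06 and 1.03 (0.93 and 0.90 after rescaling, and 0.87 for both without SAR replicate 1), and MIXL1, a homeobox gene of the primitive streak, fell by 1.35 on the log2 scale. HHEX was at 0.95 without control replicate 1. These distances are a description over 6 libraries that share their groups.

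Markers of the cell types that such cultures can hold moved beside these genes, and their part in the results was not tested. The sums of markers are given as deposited and were not rescaled. Median-ratio rescaling divides the control libraries by 0.9435 to 0.9766 and the SAR libraries by 1.044 to 1.049, which raises control sums and lowers SAR sums. Of 12 DE markers 4 were upregulated (2 after rescaling) and 3 were downregulated, with FOXA1 rising from 1.77 to 10.9 FPKM (log2 fold change 2.54) and EOMES falling from 83.1 to 32.1 FPKM (-1.36), and their summed level was between 440 and 482 FPKM in control and between 416 and 513 with SAR. Of 13 pluripotency markers 1 was downregulated, NANOG (14.7 to 5.89 FPKM, log2 fold change -1.30), while at the adjusted p-value alone 3 rose (2 after rescaling), namely SOX2 (22.1 to 39.8 FPKM, 0.88), SALL4 (48.1 to 67.2 FPKM, 0.48) and LIN28A (396 to 456 FPKM, 0.20, but 0.08 after rescaling), named after their values were seen, and the sum was between 873 and 991 FPKM in control and between 1060 and 1082 with SAR. All 4 tested node and notochord markers of 7 were upregulated, among them FOXJ1 (0.463 to 12.0 FPKM, log2 fold change 4.40) and NOTO (0.0656 to 1.95 FPKM, 3.65), and their sum went from between 4.08 and 5.55 FPKM to between 22.4 and 34.8. The lists share genes, so that their counts are not separate from each other. The list of node markers includes CHRD and TBXT, which also stand in the lists above. SOX17, FOXA2, HHEX, EOMES, GSC, GATA4, CXCR4 and GATA6 stand both among the DE markers and among the targets of activin and Nodal. NANOG stands among the pluripotency markers and the targets. In the lists below, TBXT is counted again as a mesoderm marker and GATA4 as a visceral endoderm marker.

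Of 12 mesoderm markers 5 were tested and 1, TBXT, was upregulated, with sums of 21.9 to 23.5 FPKM in control and 27.6 to 32.0 with SAR. FOXF1 was listed at 0 in all SAR libraries and at 0 to 0.0648 FPKM in control, so that its groups overlapped. Of 9 neural ectoderm markers 4 were tested and SIX3 was upregulated (0.343 to 1.14 FPKM, log2 fold change 1.51, but 0.67 with a pseudocount of 1). SOX1 was listed at 0 in all control libraries and at 0 to 0.167 FPKM with SAR. The sums were 76.6 to 79.8 FPKM in control and 62.5 to 66.0 with SAR. They were mostly ZIC2, named after its values were seen, which fell from 73.0 to 55.7 FPKM (-0.39). At the adjusted p-value alone 2 of the 4 rose and only ZIC2 fell, as deposited and after rescaling. As deposited, 23.7% of all tested genes rose and 9.55% fell. Of 8 visceral and extraembryonic endoderm markers 3 were tested and GATA4 was downregulated (13.7 to 6.68 FPKM, log2 fold change -1.05, and -0.89 without SAR replicate 3), with sums of 32.5 to 38.9 FPKM in control and 21.1 to 37.0 with SAR. Of 8 amnion and trophoblast markers 3 were tested and GATA3 was upregulated (0.964 to 2.17 FPKM, log2 fold change 1.08, but 0.96 after rescaling, 0.90 without SAR replicate 1 and 0.99 without control replicate 3). In this list GABRP, named after its values were seen, fell from 1.37 to 0.643 FPKM (-0.96) and was downregulated after rescaling (-1.07), and the sums were 5.44 to 9.79 FPKM in control and 8.34 to 10.0 with SAR.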

How the data were processed

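RNA of 3 control and 3 SAR samples was selected with oligo(dT) and sequenced as paired-end reads of 150 bases. The authors deposited FPKM for 40396 Ensembl genes, 1 column per library without pooling. The submitters' processing notes name HISAT2, featureCounts from Subread, DESeq2 and GRCh38.p13, and the annotation release and strand setting are not given in the sources used here. FPKM carry no scaling beyond the total of each library and depend on the gene length used.

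Groups came from the sample labels. limma 3.58.1 in R 4.3.3 (intensity trend, no replicate block) was fitted to log2(FPKM + 0.1) of the 16371 genes whose mean reached 0.5 FPKM, a scale on which changes of low genes come out too small. The thresholds were an adjusted p-value of 0.05 and a log2 fold change of 1. Read counts were recovered from FPKM and GENCODE 29 exon lengths, with whole reads (tolerance 0.01) for 23088 of 39023 genes at the annotated length and for 40395 of 40396 at some whole-number length, and cover counting error only. Between replicates, the chi-square of recovered counts was 4.01 to 13.4 per degree of freedom, above sampling noise, so no library was counted as a copy. Symbols were matched for 30235 genes.

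The 8 genes and all lists were chosen with earlier results of these data known. Named were the 8 genes, up to 4 upregulated or downregulated genes of each list by adjusted p-value, and the 3 most similar genes (mean 1 FPKM or more) for each of the 8 that was upregulated or downregulated. Some genes that this rule names are not reported here. SOX17, FOXA2 and CXCR4 were given as the check of the tissue. The test was checked on simulated data. Alternatives were other pseudocounts, filters and scalings, no intensity trend, voom on recovered reads, a replicate block, no minimum fold change, the LEFTY pair summed and each library left out in turn. Python 3.11.15 with pandas 2.3.3, numpy 2.4.6, scipy 1.17.1 and matplotlib 3.10.9 was used for summaries and plots.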

Additional observations from a re-analysis of the deposited data

How the results depend on the processing

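No log2 fold change of the 7 tested genes changed its direction under the 15 alternatives. LEFTY1, GDF3, CER1 and FST kept an adjusted p-value under 0.05 in all of them by limma, with log2 fold changes of -2.16 to -1.99, -1.47 to -1.06, -1.40 to -0.93 and 0.86 to 1.25. The log2 fold change of FST was 0.91 with median-ratio rescaling, and 0.86 to 1.25 with 1 library left out. That of CER1 was -0.93 with quantile normalization, where the log2 ratio of CER1 over LEFTY1 differed by 1.17 between the groups. With LEFTY1 and LEFTY2 summed as 1 gene, the log2 fold change of the pair was -0.53. The number of the 8 genes upregulated was 0 with rescaling, 2 without a minimum fold change and 0 to 1 with 1 library left out. At the adjusted p-value alone it was 1 with rescaling, no filter, no trend, quantile normalization or the replicate block, and 1 to 2 with 1 library left out, and the gene lost was TDGF1, which passed in 5 of the 15. NODAL passed in 13 and LEFTY2 in 2. Deviations of same-numbered libraries from their group means correlated at 0.0729, 0.00286 and 0.0247. Control replicates 1 and 3 correlated best with the SAR replicates of the same number, and control replicate 2 with SAR replicate 3 (0.0667). With 3 libraries in each group, such small correlations cannot decide whether the replicate numbers pair the samples. With the replicate block 546 genes were upregulated and 274 downregulated, against 559 and 259, and TDGF1 had an adjusted p-value of 0.0718 by limma. The shallowest values were those of INHBA, with 3 to 17 reads, whose log2 fold change without a filter was 0.09 (adjusted p = 0.872 by limma).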

Other observations

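Copies related to the 8 genes are named here with their values already known. LEFTY3P had 1 to 9 reads in each library, and TDGF1P5, TDGF1P6 and TDGF1P7 had 0 to 16 reads. TDGF1P3 had 437, 578 and 493 reads in the control replicates and 349, 396 and 452 reads in the SAR replicates. CFC1B, the copy of the co-receptor gene CFC1, had 1, 0 and 1 reads in the control replicates and 5, 5 and 10 reads in the SAR replicates. GREM1, an antagonist of BMPs and not a copy of the 8 genes, is also named with its values already known. It was under the minimum for testing, at 0.114 to 0.266 FPKM in control and 0.0405 to 0.0639 FPKM with SAR. Its groups did not overlap, but the same was true of 50.7% of all tested genes. Other listed genes under the minimum, among them SHH and CDX2, did not overlap either.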
